A study of Oryza sativa with 200 samples.

Results

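Genes of phosphate signalling and transport were followed in rice leaves. There are 8 of them, among 37849 genes in the count tables, and they were chosen by identifier from a list of regulators and carriers. They are PHR2 (Os07g0438800), SPX1 (Os06g0603600), SPX2 (Os02g0202200), SPX3 (Os10g0392600), SPX4 (Os03g0827500), IPS1 (Os03g0146800), PT4 (Os04g0186400) and PT8 (Os10g0444700). The digits after Os give the chromosome. In rice, PHR2 is the MYB transcription factor that switches on the genes of the phosphate starvation response. SPX proteins bind inositol pyrophosphates, whose amount follows the phosphate of the cell, and in that state hold PHR2 away from its targets. IPS1 is a noncoding RNA that sequesters the microRNA miR399 and is used as a marker of phosphate starvation. PT4 and PT8 belong to the PHT1 family, which brings phosphate into cells together with protons. SPX1, SPX2, SPX3 and IPS1 are themselves known targets of the starvation response, and in rice they respond to phosphate shortage as a group.

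Leaf RNA came from 100 lines of JAM2, a multi-parent (MAGIC) population whose 4 parents are Akidawara, Iwaidawara, Tachiharuka and Toyomeki, and each line gave 1 library in 2022 and 1 in 2023. The 2022 group was generation F5, sampled on 1 July, and the 2023 group was generation F6, sampled on 29 June. All lines of both groups received the same basal chemical fertilizer. Per ha it held 176 kg of PO4, 56 kg of nitrogen and 56 kg of potassium. No group with less phosphate is part of the design. Each line stood as 33 plants in 1 plot without replication in a paddy field at Tsukuba, and its 1 sampled leaf was frozen in the morning (9:00 to 11:00), 6 weeks after transplanting. Year, generation, field season and preparation of the libraries therefore cannot be told apart, and a p-value over lines measures the spread between single leaves. Because these are bulk leaves, fewer cells of a type and less RNA per cell cannot be told apart either.

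Libraries held 3254834 to 37774023 counts in 2022 (median 7768777) and 3729294 to 16881699 in 2023 (median 11272411). The 30 deepest libraries of 2022 all stood in columns 51 to 100 of that year's table. Leaf markers were high in both years, with RCA, the activase of Rubisco, at 29688 ± 7033 CPM (counts per 1e6 counts of the library, TMM scaled; SD, n = 100) in 2022 and 42043 ± 5740 CPM in 2023. Of the root markers, the silicon exporter LSI2 had 0 counts in 2022 and 7 counts in 2023, while the silicon channel LSI1 stood at 16.4 ± 3.41 and 20.7 ± 5.36 CPM (SD, n = 100). OsMADS1, a panicle gene, had counts in 86 libraries in 2022 and 92 in 2023. Its part in the values of the phosphate genes was not tested.

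Of the 8 genes, 6 were expressed in every leaf, and 2 markers of starvation were nearly absent. IPS1 gave 14 counts in 2022, spread over 13 of 100 libraries with at most 2 in any, and 126 counts in 26 libraries in 2023. SPX3 gave 9 counts in 7 libraries in 2022 and 12 counts in 9 libraries in 2023. With a floor of 3 counts, a library of median depth could have shown 0.386 CPM in 2022 and 0.266 CPM in 2023, a limit that covers counting error only. Neither gene passed the filter on low counts, so neither entered the tests below, apart from a fit run with no such filter.

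One leaf stood apart for IPS1. Line J2_345 held 43 of the 126 counts of 2023, or 4.16 CPM, against 12, 10 and 10 counts in the next 3 libraries. In 2022 the same line had 0 IPS1 counts in its library. Its other phosphate genes in 2023 were spread over the ranking of the 100 lines from the highest level down, with SPX1 at place 20, PT8 at 64, PHR2 at 71, SPX4 at 83, SPX2 at 92 and PT4 at 94. SPX3 had 0 counts in that leaf. Without line J2_345, the other 99 libraries of 2023 held 83 IPS1 counts in 25 libraries, still above the 14 of 2022. A fit with no filter on low counts gave IPS1 a log2 change of 2.45 (edgeR's quasi-likelihood test, adjusted p = 1.1e-11), and 1.88 without line J2_345 (adjusted p = 6.5e-09, an alternative added after seeing the data). The same unfiltered fit over all lines gave SPX3 a log2 change of 0.26 (edgeR adjusted p = 0.40). At counts this low such a fitted change depends on the prior count and is not a measured fold.

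PHR2, the central regulator, was the steadiest of the expressed genes. Its level was 35.3 CPM at the lowest, 51.3 at the median and 66.5 at the highest line in 2022, and 51.4, 62.9 and 78.4 CPM in 2023. The lowest leaf of 2023 thus lay at about the median of 2022, and the ranges overlapped above it. The SD over lines was 0.19 on the log2 scale in 2022 and 0.14 in 2023, where counting alone would give 0.07 and 0.06.

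Among the SPX genes, SPX1, an inhibitor of PHR2 that is itself a PHR2 target, ran from 7.21 CPM through a median of 13.5 to 22.6 in 2022. In 2023 it ran from 10.04 CPM through 16.0 to 27.1. SPX2, which acts together with SPX1, ran from 16.1 CPM through 27.9 to 47.3 in 2022 and from 19.9 through 33.3 to 50.8 in 2023. SPX4, which keeps PHR2 in the cytoplasm and is controlled largely through the stability of its protein, ran from 9.29 CPM through 13.5 to 20.8 in 2022 and from 9.22 through 15.5 to 24.1 in 2023. For all 3 the ranges of the years overlapped, and the higher end moved up in 2023. The lower end moved up too for SPX1 and SPX2, and stayed near the same level for SPX4.

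The transporters varied most between lines. PT8, a carrier expressed in roots and shoots, ran from 10.4 CPM through a median of 23.6 to 49.3 in 2022, and from 9.43 through 19.0 to 32.7 in 2023. Its upper end therefore came down between the years while its lower end stayed near the same level. PT4 ran from 30.9 CPM through 48.4 to 74.4 in 2022 and from 25.7 through 44.8 to 82.5 in 2023. The SD over lines on the log2 scale was 0.44 and 0.38 for PT8 and 0.27 and 0.38 for PT4 in the 2 years, against a counting SD between 0.07 and 0.11.

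**Figure D1:**
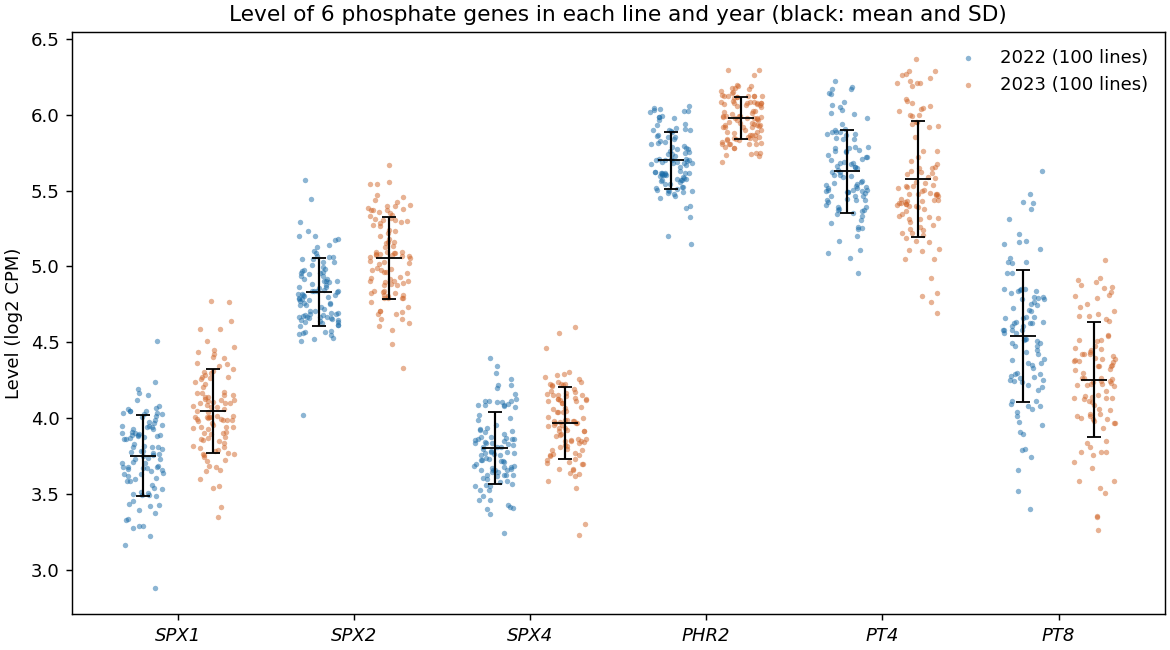
Level (log2 CPM) of the 6 expressed phosphate genes in each of 100 lines, 2022 in blue and 2023 in orange, with black bars for mean and SD. PHR2, SPX1, SPX2 and SPX4 sit higher in 2023, PT8 sits lower, and the years overlap for every gene.

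The first comparison asked how these levels changed between the seasons. The same lines stood in both years, but the main fit compared the groups of libraries without pairing them by line. PHR2 and the SPX genes were higher in 2023, PT8 was lower and PT4 did not pass the test. Of the 6 genes tested, 4 were called higher and 1 lower at an adjusted p under 0.05, where 34.3% of all 18674 genes tested were called higher and 36.9% lower. Most genes thus differed between the years, so a call is no mark of these genes. Their median change of 0.20 (log2, 2023 against 2022) stood beside a median of -0.01 over all genes, and the median size of change was 0.25 for them and 0.19 for all genes.

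Mean PHR2 was 52.2 ± 6.84 CPM in 2022 and 63.1 ± 6.13 in 2023 (SD, n = 100), 1.21-fold higher. On the log2 scale it changed by 0.27 (SE 0.02, edgeR adjusted p = 6.7e-23), and 88 of 100 lines were higher in 2023. Over the 30 lines sequenced deepest in 2022 it changed by 0.10 (adjusted p = 0.0076), against 0.35 over the other 70 lines. In the 2022 table the 30 stood at a median column of 82.5 and the 70 at 35.5. Depth and column place therefore cannot be told apart in this split, for PHR2 or for the other genes. SPX1 rose from 13.5 ± 2.47 to 16.7 ± 3.34 CPM (SD, n = 100), a log2 change of 0.30 (SE 0.04, edgeR adjusted p = 7.0e-13) seen in 82 of 100 lines. SPX2 rose from 28.6 ± 4.62 to 33.7 ± 6.33 CPM, a log2 change of 0.24 (SE 0.04, edgeR adjusted p = 7.5e-10) in 75 of 100 lines. Both inhibitors thus moved in the same direction as the factor they restrain.

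SPX4 showed the smallest of the called increases. It went from 13.97 ± 2.38 to 15.7 ± 2.57 CPM (SD, n = 100), a log2 change of 0.16 (SE 0.03, edgeR adjusted p = 5.2e-06), with 73 lines higher. Scaled by total counts alone, which puts the median of all genes at -0.12, its change was 0.05 (adjusted p = 0.14).

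PT8 fell from 24.2 ± 7.54 to 19.6 ± 5.08 CPM (SD, n = 100), a log2 change of -0.31 (SE 0.06, edgeR adjusted p = 6.6e-07), and was lower in 73 of 100 lines. Among the 30 lines sequenced deepest in 2022 its change was -0.17 (adjusted p = 0.10). PT4 stood at 50.1 ± 9.71 CPM in 2022 and 49.2 ± 13.5 in 2023. Its change of -0.03 missed the threshold (edgeR adjusted p = 0.62), with a 95% interval of -0.12 to 0.07 and 58 lines lower. With lines as a block, which pairs the years, the PT4 change was -0.05 (edgeR adjusted p = 0.14). Under scaling by total counts the PT4 change was -0.14 (adjusted p = 0.0078), beside the median of -0.12 over all genes.

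Other genes of phosphate homeostasis were taken from a list of 30. Of their names, the RefSeq gene table lists 16 on the chromosome of the locus, 1 on another chromosome and 13 not at all. Only the 16 were used, and 7 of them passed the filter on low counts. Of these 7, 3 were higher in 2023 and 3 lower. PHO1;3, a homologue of the phosphate exporter PHO1, rose from 24.8 ± 5.90 to 38.8 ± 9.08 CPM (SD, n = 100), a log2 change of 0.64 (SE 0.05, edgeR adjusted p = 1.2e-27). PHO1;2, which loads phosphate into the xylem, rose by 0.33 (SE 0.05, adjusted p = 7.3e-10), and SPX6 rose by 0.46 (SE 0.04, adjusted p = 1.5e-21). PHR3, a relative of PHR2, fell from 14.3 ± 3.07 to 9.68 ± 2.32 CPM, a log2 change of -0.56 (SE 0.05, edgeR adjusted p = 2.1e-24). PHR1 (change -0.16) and PHO1;1 (change -0.15) also fell, by edgeR adjusted p = 2.2e-16 and 0.010. The PHO1;1 call was lost over the 70 lines sequenced less deeply in 2022 (-0.07, adjusted p = 0.37) and after thinning (-0.19, adjusted p = 0.078). PT1, another PHT1 carrier, had a change of 0.03 (adjusted p = 0.73). The MYB regulators therefore did not share a direction, with PHR2 higher and both of its tested relatives lower.

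The second comparison asked whether a line kept its level of a gene from one year to the next. Both transporters and SPX1 did so, and the other 3 expressed genes did not pass. Repeatability was the Pearson r of log2 CPM between the years over 100 lines, with adjustment over 18490 genes, of which 22.3% were called repeatable at r above 0. Of the 6 phosphate genes averaging 1 CPM or more, 3 were called, and of 8 other pathway genes 5 were. PT5, 1 of these 5, reached the level filter only through the lines that express it, and its r is not given because its lines form separate clusters.

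PT4 had the highest repeatability, with r = 0.561 (95% interval 0.410 to 0.682, adjusted p = 1.9e-08), rho = 0.562, a permutation p of 1e-05 for each, the smallest that 100000 permutations can give, and r = 0.547 once the 2 lines most distant from the median were left out. Line J2_334, the highest in PT4 in 2022 at 74.4 CPM, was at place 14 in 2023 with 67.2 CPM. The highest and lowest lines for PT4 in 2023, J2_404 and J2_274, had been at places 13 and 73 in 2022. PT8 had r = 0.455 (interval 0.283 to 0.598, adjusted p = 2.3e-05), rho = 0.430 and r = 0.401 without its 2 farthest lines, with a permutation p of 1e-05. Line J2_315 had the highest PT8 level in 2022 (49.3 CPM) and stood at place 3 in 2023 with 29.9 CPM. Line J2_337 was lowest in 2022 (10.4 CPM) and at place 96 in 2023 with 11.5 CPM. For PT8 the highest and lowest lines of 2023, J2_294 and J2_370, had been at places 28 and 83 in 2022.

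SPX1 had r = 0.414 (interval 0.236 to 0.564, adjusted p = 0.00018), rho = 0.396 and r = 0.382 without its 2 farthest lines, with a permutation p of 3e-05 for r. Line J2_342 was highest for SPX1 in 2022 at 22.6 CPM and at place 8 in 2023 with 21.7 CPM. Lines J2_236 and J2_403, highest and lowest for SPX1 in 2023, had been at places 28 and 75 in 2022. With every library thinned to the smallest total, the r of SPX1 was 0.142 (adjusted p = 0.52) and that of PT8 was 0.288 (adjusted p = 0.039), leaving 2 genes called. In the 30 lines with deep 2022 libraries the call was kept for PT4 and lost for SPX1 (r = 0.460) and PT8 (r = 0.304).

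SPX2 had r = 0.216 (interval 0.020 to 0.395, adjusted p = 0.11), PHR2 r = 0.141 (interval -0.057 to 0.328, adjusted p = 0.36) and SPX4 r = 0.110 (interval -0.088 to 0.30, adjusted p = 0.50). The median over all genes was 0.114. For SPX2 and SPX4, 0 of the 10 highest and 0 of the 10 lowest lines of 2022 were again among those 10 in 2023. These counts were 2 and 1 for PHR2, and among the called genes 2 and 2 for PT4, 2 and 2 for PT8 and 4 and 3 for SPX1. Among the other pathway genes that passed, PT1 had r = 0.446, PHO1;2 r = 0.474, SPX6 r = 0.279 and PHR3 r = 0.258. PHO1;2 had r = 0.223 (adjusted p = 0.090) after a trend over column order was removed.

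**Figure D2:**
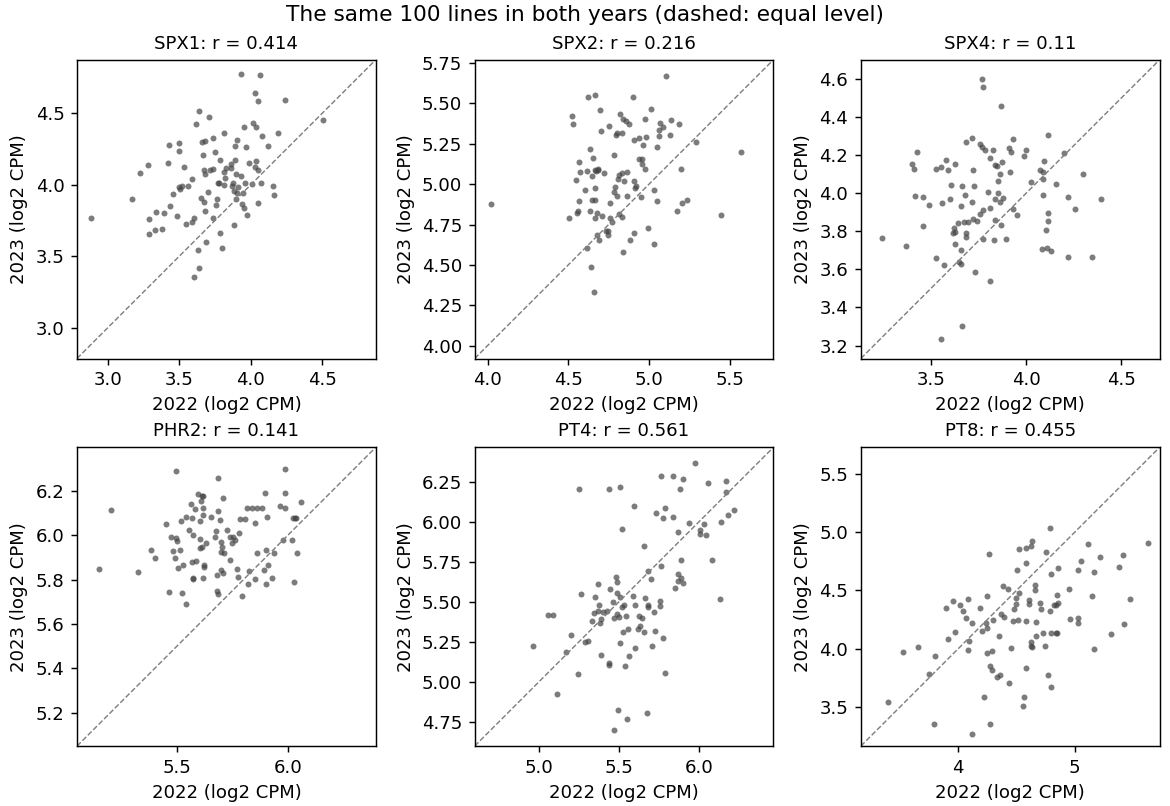
Each point is 1 of 100 lines, with its level in 2022 (x axis, log2 CPM) against 2023 (y axis, log2 CPM) for 6 phosphate genes, and the dashed line marks equal levels. PT4 (r = 0.561), PT8 (r = 0.455) and SPX1 (r = 0.414) lie along a slope, while SPX4 and PHR2 form a round cloud.

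The third comparison asked whether the genes rose and fell together over lines within a year, as genes read from a common phosphate status might. Few pairs did. Of 15 pairs among the 6 expressed genes, 1 passed in 2022 and 3 in 2023, adjusting over all 110934 relations of these 6 genes with every tested gene in a year. In the same relations 14.2% passed in 2022 and 8.43% in 2023, so the pairs passed less often than these in 2022 and more often in 2023. After a trend over column order was removed, 7.24% and 7.82% of the relations passed, and 0 and 3 of the 15 pairs. The median absolute r of the 15 pairs was 0.056 in 2022 and 0.107 in 2023, against 0.113 and 0.108 for the 6 genes with all genes.

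SPX2 and PT4 passed in both years when adjusting over all these relations. In 2022 r was 0.289 (rho 0.295, permutation p = 0.0035 for r, adjusted p = 0.030), and r was 0.279 without the 2 lines farthest in SPX2. In 2023 r was 0.364 (rho 0.411, permutation p = 0.00027, adjusted p = 0.0069) and 0.382 without the 2 farthest lines. The 2022 call ended when a trend over column order was removed (r = 0.276, adjusted p = 0.069). Adjusted over the pairs of a year alone, the permutation p of SPX2 with PT4 was 0.053 in 2022 and 0.0020 in 2023. The 2022 value missed the threshold, so that call depended on which relations the adjustment covered. SPX1 and SPX2 passed in 2023 with r = 0.358 (rho 0.336, permutation p = 0.00026, adjusted p = 0.0082, and 0.337 without the 2 farthest lines). In 2022 their r was 0.186 (adjusted p = 0.23).

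SPX1 and PT8 ran in opposite directions in 2023, with r = -0.323 (rho -0.316, permutation p = 0.00092, adjusted p = 0.020, and -0.303 without the 2 farthest lines). Scaled by total counts alone, the 2023 r of this pair was -0.167 (adjusted p = 0.24), and the call was lost. The r of SPX1 and PT8 in 2022 was -0.060 (adjusted p = 0.77). Whether these r differed between the years was not tested. With libraries thinned to the smallest total, 0 of 15 pairs passed in 2023, and SPX2 with PT4 had r = 0.319 (adjusted p = 0.14) in 2023 and 0.081 (adjusted p = 0.76) in 2022. The 1 pair that then passed in 2022 was SPX1 with SPX4 (r = 0.305, adjusted p = 0.048).

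No pair of PHR2 with an SPX gene passed in either year with TMM scaling. Its r with SPX1 was 0.064 in 2022 and -0.038 in 2023, its r with SPX2 was 0.049 and -0.047, and its r with SPX4 was -0.027 and 0.212 (adjusted p from 0.18 to 0.91). Scaled by total counts alone, PHR2 and SPX4 did pass in 2023 (r = 0.316, adjusted p = 0.011). The first principal component of the 6 genes held 23.6% of their variance in 2022 and 28.0% in 2023, and the second 20.4% and 20.8%. An equal share for each of 6 components is 16.7%, but the first is the largest by construction and exceeds it even for unrelated genes. Whether its share exceeds that of unrelated genes was not tested. The first component was fitted apart in each year, and its line scores had an r of 0.234 between the years. SPX1 and SPX2 carried the largest weights in 2023 (0.57 and 0.61), and PHR2 nearly none (0.02). In 2022 the weights of SPX1, SPX2 and PHR2 were 0.36, 0.56 and 0.41. That r thus compares unlike mixtures of the genes.

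**Figure D3:**
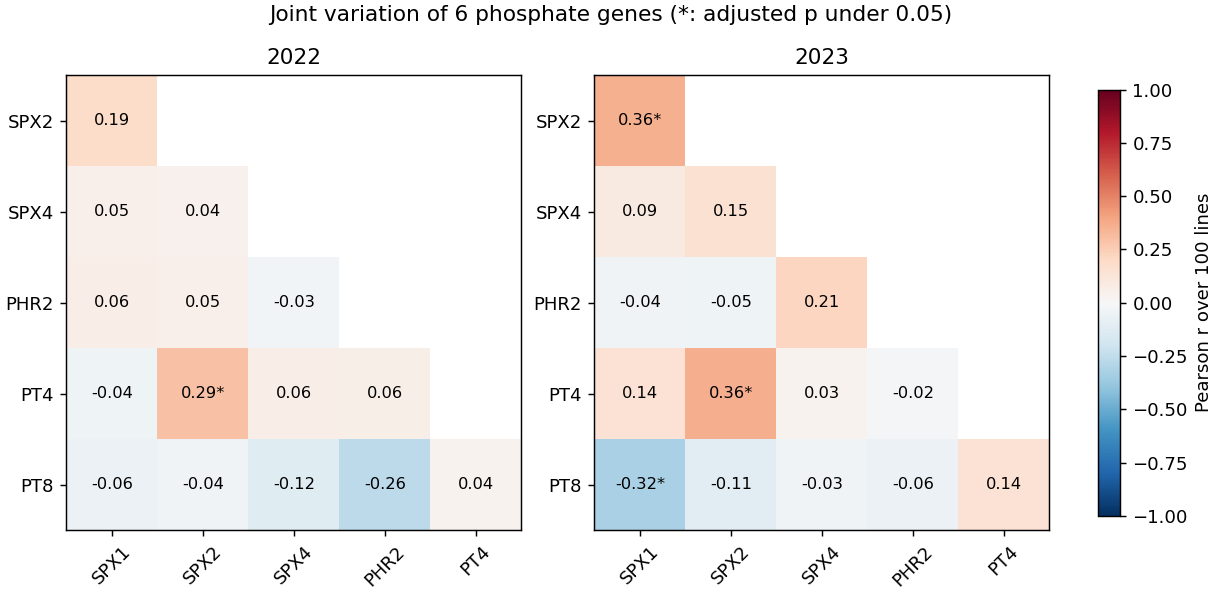
Pearson r over 100 lines for each of 15 pairs of phosphate genes in 2022 (left) and 2023 (right). Red is positive and blue is negative. An asterisk marks an adjusted p under 0.05, adjusting over all relations of these genes with every tested gene in a year. Only SPX2 with PT4 carries an asterisk in both years, at 0.29 and 0.36. Adjusted over the 15 pairs alone, its permutation p in 2022 is 0.053.

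PHR2 moved with the place of a library in the count table. In 2022 its median rose from 47.4 CPM in columns 1 to 25 through 48.5 and 53.2 to 59.5 CPM in columns 76 to 100. The relation with column place had r = 0.753 (rho 0.763, adjusted p = 7.7e-18, and r = 0.754 without the 2 columns at the ends). Within the 30 deepest libraries r was 0.459, and within the other 70 it was 0.616. Over all genes 52.6% passed that test in 2022. In 2023 the medians of the same 4 stretches were 67.1, 59.1, 67.4 and 61.4 CPM, with r = -0.104 (adjusted p = 0.60), so the level went down, up and down again. What the order of the columns stands for is not given in the sources used here.

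OsLHY (Os08g0157600), a morning gene of the circadian clock whose transcript changes with time of day, also differed along the columns. It rose from 393 ± 48.2 CPM (SD, n = 10) in columns 1 to 10 to 1508 ± 174 in columns 91 to 100 in 2022. In 2023 it stood at 2009 ± 223 CPM in columns 1 to 10, at 1340 ± 137 in columns 41 to 50 and at 2088 ± 186 in columns 61 to 70 (SD, n = 10 each). PHR2 followed OsLHY over lines with r = 0.742 in 2022 (rho 0.759, adjusted p = 2.1e-15, r = 0.739 leaving out the 2 farthest) and r = 0.487 in 2023 (rho 0.50, adjusted p = 6.8e-05, and r = 0.517 leaving out the 2 farthest). Within the 30 lines of deep 2022 libraries and the other 70, the 2022 r was 0.434 and 0.613. Of the other genes, PT8 passed with OsLHY in 2022 (r = -0.385, adjusted p = 0.0014) and SPX4 in 2023 (r = 0.339, adjusted p = 0.013). OsLHY stood at place 57 among all genes by its absolute r with PHR2 in 2022 and at place 20 in 2023.

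After the mean of each block of 10 columns was subtracted, the r of PHR2 with OsLHY was 0.170 in 2022 (adjusted p = 0.36) and 0.411 in 2023 (adjusted p = 0.0031). SPX2 then passed with OsLHY in both years (r = 0.353, adjusted p = 0.017, and 0.390, adjusted p = 0.0058), SPX1 (r = 0.308, adjusted p = 0.045) and PT8 (r = -0.350, adjusted p = 0.017) in 2023. With the level of OsLHY regressed out, the 3 repeatable genes were still called and 3 pairs passed in 2023. The r between years of PHR2 was then 0.241 (adjusted p = 0.061). Both of these alternatives were added after seeing the data. OsLHY itself rose between the years, from 879.2 ± 381.03 to 1743.4 ± 323.3 CPM (SD, n = 100), and its part in the year change of PHR2 was not tested.

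PT8 ran the other way in 2022. Its medians over those stretches went from 24.7 and 27.4 to 22.05 and 19.5 CPM, and its r with column place was -0.365 (rho -0.396, adjusted p = 0.00061), and within the 30 deepest libraries it was -0.451 against -0.270 outside them. In 2023 the r of PT8 was 0.111 (adjusted p = 0.57). PT4 was related to column place in 2023, with r = 0.330 (rho 0.316, adjusted p = 0.017), where 8.96% of all genes passed. PHR2 also rose with the library total in 2022 (r = 0.432, adjusted p = 0.00030), a test that 24.1% of genes passed. In 2023, 0.0919% of genes passed that test with the total. Of 24 relations of the 6 genes with column place or total, these 4 passed. Adjusted over the 24 alone, 5 passed, the fifth being SPX4 with the library total in 2023 (r = -0.276, adjusted permutation p = 0.027).

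**Figure D4:**
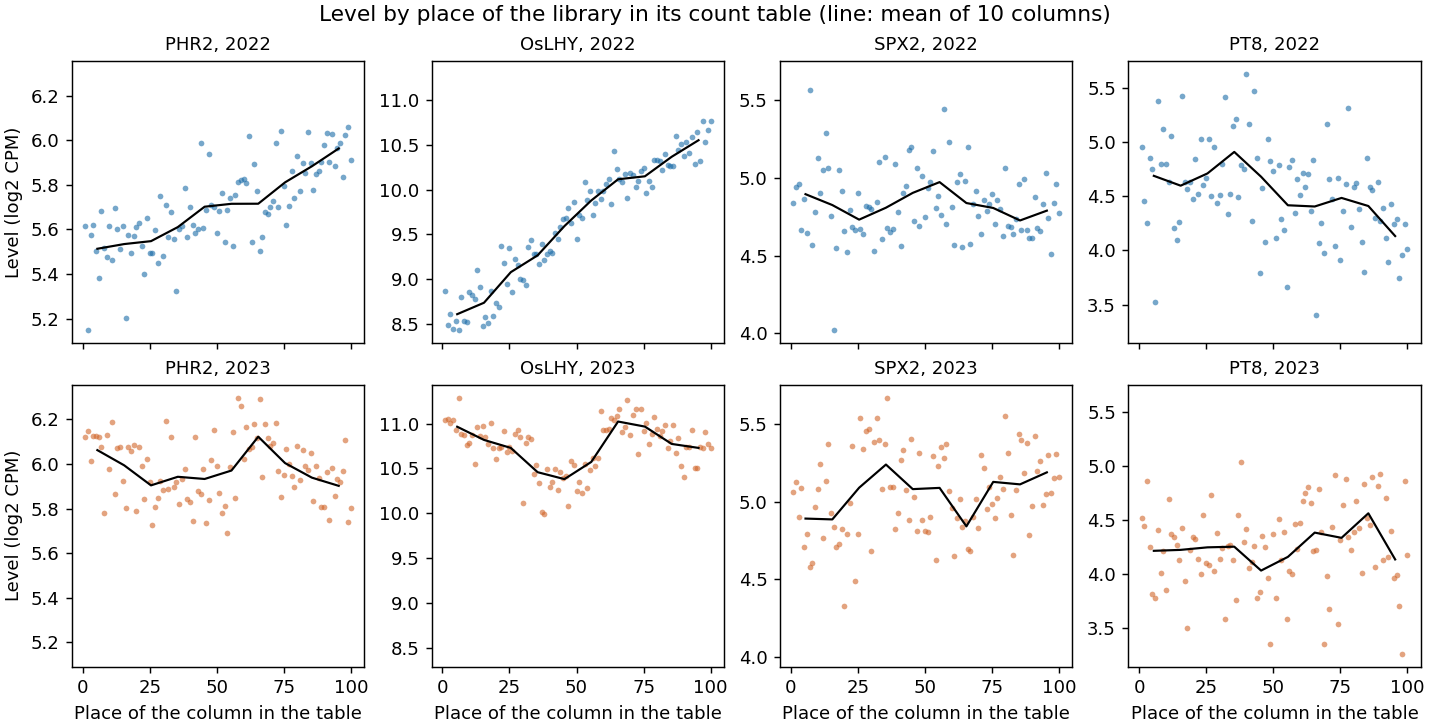
Level (log2 CPM) of PHR2, OsLHY, SPX2 and PT8 by place of the library in its count table (columns 1 to 100), 2022 in the upper row and 2023 in the lower, with a line through the mean of each 10 columns. In 2022 PHR2 and OsLHY climb across the table, and in 2023 both have their highest mean in columns 61 to 70, while OsLHY is lowest in columns 41 to 50 and PHR2 is about as low in columns 21 to 30 as in columns 91 to 100.

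Links to other genes of the pathway that passed in both years all involved a transporter. Over 48 relations of the 6 genes with 8 other pathway genes, 9 passed in 2022, 9 in 2023, and 4 in both years with the same sign, of which 3 were with PT8 and 1 with PT4. The link of PT4 was to PT5, which reached the level filter only through the lines that express it. Over all genes 14.2% of such relations passed in 2022, 8.43% in 2023 and 2.66% in both with the same sign. With PT8 alone, 5.54% of all genes passed in both years with the same sign. PT8 ran with PT1, a member of its own family on chromosome 3, at r = 0.652 in 2022 (rho 0.569, adjusted p = 4.8e-11, 0.588 without the 2 farthest lines) and 0.582 in 2023 (rho 0.577, adjusted p = 3.8e-07, 0.564 without them). PT1 stood at place 9 of all genes by absolute r with PT8 in 2022 and at place 29 in 2023. Removing a trend over column order left r at 0.660 and 0.577.

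PT8 also passed in both years with a regulator and with a PHO1 homologue. With PHR3 its r was 0.321 in 2022 (adjusted p = 0.012) and 0.386 in 2023 (adjusted p = 0.0035). With PHO1;3 its r was -0.306 (adjusted p = 0.019) and -0.319 (adjusted p = 0.022). In 2022 these fell to 0.177 and -0.183 after the trend over column order was removed, and in 2023 they stood at 0.380 and -0.323. PHR3 and PT8 were both lower in 2023 than in 2022, and PHO1;3 was higher.

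PT4 shared its course with PT5 (Os04g0185600), another PHT1 carrier and the tested gene next to it on chromosome 4. PT5 was either off or clearly expressed in most lines, but not in all. Counting lines under 0.2 CPM as off and lines of 2 CPM or more as on, 27 lines were on in both years, 59 were off in both, and 0 switched from on to off or back. The on lines ran from 3.78 CPM through a median of 7.99 to 11.45 in 2022, and from 4.88 through 11.4 to 16.4 in 2023. The 14 other lines lay between the limits in at least 1 year. Because the lines fall into separate clusters, no r is given over all 100.

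Within the 27 on lines, PT4 rose with PT5, with r = 0.633 in 2022 (rho 0.625, permutation p = 0.00058, 0.630 without the 2 farthest lines) and 0.640 in 2023 (rho 0.549, permutation p = 0.00019, 0.440 without them). The level of PT5 among these lines did not pass as repeatable (r = 0.274, permutation p = 0.17). PT4 and PT5 are neighbouring relatives, and the label of the tables speaks of reads counted where unique, so how reads shared by both were divided is uncertain.

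Genes near PT4 also varied with it. Of the 50 tested genes nearest to PT4 in order along the chromosome, 12, or 24.0%, passed with PT4 in both years, where 1.16% of all genes did. Of these 12, 5 had lines in separate clusters in both years. For PHR2 the same count was 10 of 50, or 20%, against 3.94% of all genes, 5 of them with such clusters, and for the other 4 genes it was 0 to 2 of 50. Over chromosome 4, 54 genes passed with PT4 in both years. Among the 20 genes most like PT4, 8 were on chromosome 4, which holds 8.70% of tested genes. The count of near genes was chosen after values were seen and is a description.

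**Figure D5:**
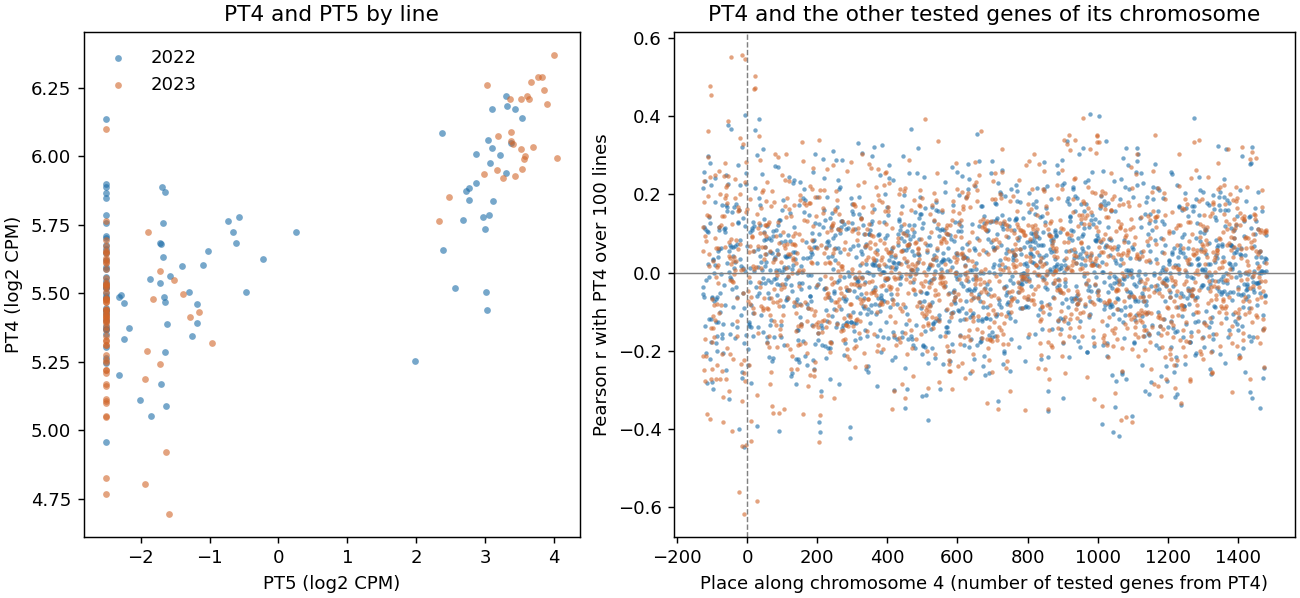
Left, PT4 against PT5 (log2 CPM) in 100 lines, 2022 in blue and 2023 in orange, with PT5 falling into an off and an on cluster. Right, the Pearson r of PT4 over 100 lines with each tested gene of chromosome 4, by the number of tested genes from PT4. The 34 genes of the chromosome whose lines fall into separate clusters in both years, PT5 among them, are left out. Of the 54 genes that passed in both years, 11 are among the 34 left out. Counting all 54, 15 lie within 50 genes of PT4 and the farthest lies 1439 genes away.

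For each expressed gene, the 2 genes most like it were those with the highest smaller-of-2-years r among 18489 others. For PT8 they were Os09g0339000, with r = 0.737 in 2022 and 0.679 in 2023, and Os02g0228300, with 0.675 and 0.670. For PHR2 they were Os03g0387900 (0.766 and 0.546) and Os04g0679900 (0.675 and 0.542), whose 2022 values fell to 0.353 and 0.103 once the trend over column order was removed. SPX4 was most like Os03g0146500 (0.489 and 0.570) and Os01g0924400 (0.448 and 0.473). SPX2 was most like Os04g0540500 (0.476 and 0.471) and Os02g0564400 (0.452 and 0.531).

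SPX1 had the weakest companions. It was most like Os03g0745550, with r = 0.362 and 0.369, and Os01g0502800, whose lines fall into separate clusters. PT4 was most like PT5 and Os04g0202500, for which the same holds. In all, SPX1 passed with 34 genes in both years in the same direction, PT4 with 215, SPX4 with 432, SPX2 with 520, PHR2 with 729 and PT8 with 1024. PHR2 passed with 41.6% of genes in 2022 and 5.91% in 2023, and with 5.94% in 2022 after the trend over column order was removed.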

How the data were processed

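Values are counts per gene as deposited, in 1 table per year, made by the authors from unique exon reads per the labels. The submitters' processing notes name the build IRGSP-1.0. No aligner or counter is given in the sources used here. Libraries were stranded by kit (NEBNext Ultra II Directional), per the labels' protocols. All 200 columns matched a labelled sample. Gene names were pairs of symbol and locus from general knowledge, checked by symbol and chromosome, not by identifier, against the RefSeq gene table of assembly ASM3414082v1. It lists 7 of the 8 symbols, and IPS1 is not listed. Members and lists were chosen with earlier results of these data known. The 8 genes, the pathway genes that passed between the years and the 2 genes most like each gene are named by rule, and PT5, OsLHY and line J2_345 were singled out after their values were seen.

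Years were compared with edgeR 4.0.16 (R 4.3.3): filterByExpr by year, TMM, quasi-likelihood F test on year, Benjamini-Hochberg adjustment over all genes tested. SE was the absolute log2 change over the square root of F. Correlations used log2 CPM (TMM, prior count 2) of genes averaging 1 CPM or more, p from the t distribution of r with the same adjustment, and two-sided permutation p from 100000 draws. The 24 relations with column place and total were also adjusted among themselves, as were the permutation p of the pairs within a year. Line numbers pair the libraries, since each number names 1 line whatever the year. Lines of a gene counted as separate clusters where a gap away from the 10 lines at either end spanned over 8% of the range in both years, a limit set with values known. The column trend was linear plus quadratic within a year. DESeq2 1.42.0, total-count scaling, thinning to 3254834 counts and other alternatives were run, and the steps were tested on simulated data.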

Additional observations from a re-analysis of the deposited data

How the results depend on the processing

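In the paired analysis, with lines as a replicate block, 4 of the 6 phosphate genes were again higher and 1 lower, with 13814 genes passing against 13298 without it, and the block changed no call of a phosphate or other pathway gene. DESeq2 and column place as covariates likewise gave 4 higher and 1 lower. The count of phosphate genes lower in 2023 was 0 in the 30 lines sequenced deepest in 2022 and 2 with total-count scaling. Without a filter on low counts, 8 other pathway genes were higher instead of 3, with or without line J2_345, the added ones being SPX5, PT2, PT6, PT7 and MGD2, each with few counts. Repeatable phosphate genes numbered 1 in the 30 deep lines and 2 after thinning. Pairs passing in 2022 numbered 0 in the 30 deep lines, in the other 70, with the column trend removed, with blocks of 10 columns removed, with OsLHY removed and with no level filter. Pairs passing in 2023 numbered 5 with total-count scaling and 0 after thinning. The 5 included PHR2 with SPX4, PHR2 with PT8 and PT4 with PT8, while SPX1 with PT8 was no longer called. With total-count scaling PHR2 and PT8 had r = 0.313 in 2023 (adjusted p = 0.012), reversed from -0.055. The cause of these changes was not tested, except that subsets and thinning leave fewer lines or counts. Depth limits IPS1 and SPX3 to a statement about counts, and leaves SPX1 and SPX4, with medians of 118 and 122 counts a library in 2022, the least precise of the expressed genes.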
